A study of Mus musculus with 3 samples.

Results

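The small RNAs of Cfap and Dnah genes were examined in immunoprecipitates from mouse testis of the C57BL/6 strain. Cfap genes encode cilia and flagella associated proteins, and Dnah genes encode the heavy chains of axonemal dynein. The members were all protein-coding genes of the GENCODE vM21 annotation whose symbol starts with Cfap, Dnah or Dnai and a digit. This gave 46 of 21951 protein-coding genes, of which 31 were Cfap genes, 15 were Dnah genes and 0 were Dnai genes, since this annotation names the outer arm intermediate chains Dnaic1 and Dnaic2. Of 2219118 listed sequences, 1436 matched a member in the sense direction and another 129 matched only the antisense strand. The series has 3 libraries, 1 per group. They are small RNAs bound to Mili (gene symbol Piwil2) from testis of Tdrd1 knockout animals at 15 days after birth, those bound to Tdrd1 from adult testis, and those bound to Mili from adult wild-type testis. The labels do not describe the knockout allele, and they give no genotype beside the Tdrd1 library. Nor do they say how many animals each library came from. The knockout library differs from the others in age as well as genotype, so that these cannot be told apart. At 15 days the first wave of spermatogenesis has not yet made haploid cells. The authors deposited a single list of distinct sequences with positions for the whole series and with no library column. No member could therefore be compared between knockout and wild type, or between Tdrd1 and Mili, and the knockout itself could not be checked. All values below describe the pooled list, in which every distinct sequence weighs 1, however often it was read.

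The axoneme is the microtubule core of motile cilia and of the sperm tail. Outer and inner rows of dynein arms slide its microtubule doublets past each other, and each arm is built on large heavy chains. Radial spokes, tethers and the central apparatus regulate the arms, other proteins line the inside of the doublets, and cytoplasmic factors assemble the arms before they enter the tail. In the testis many of these genes are switched on in meiotic and haploid germ cells. Mili is a Piwi protein that carries piRNAs, small RNAs of germ cells that often start with U and that can be cut from mRNAs as well as from long noncoding precursors. Tdrd1 is a Tudor-domain protein that binds Mili.

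Some of the listed small RNAs are shown first, because the lengths, first bases and positions described below are read from such sequences. Each is the listed form of at most 30 nt from the 5′ end that had the most listed 3′ ends, in the 10 members with most sense sequences. The first base is in capitals, and T stands for U.
Cfap97: Tgctgactcgtagacagatctgaggacagt
Cfap74: Tgaagctcgtgaagtggaagttgtagcgt
Dnah8: Tccgaagctgtacgtgtgtcctatctac
Cfap36: Tgaaaagctgttagaaagttacctcaaaga
Dnah14: Tgaaatattgttacatagtagaaaaggcc
Dnah17: Tgaaaggaaggacaacaagaaggaagcc
Cfap298: Taatatgcaagggctgactgatgagcaga
Cfap20: Tcaaggactgtgaggagtgcatccagctag
Cfap69: Tcggatgaaataacttacactgaagata
Cfap57: Tatagatcagaaatggcaaaaattcat
All 10 begin with U, and A stands at position 10 in those of Cfap298 and Cfap69. On build mm9 the Cfap97 sequence lies on the plus strand at chr8:47280359-47280388, in the 3′ untranslated region, and its 5′ end had 7 listed 3′ ends. The Cfap74 sequence (plus strand, chr4:154795047-154795075) had 5 and lies in the 3′ untranslated region of a coding transcript other than the longest. The Dnah8 sequence (plus strand, chr17:31011933-31011960) had 4 and lies near the end of the coding sequence. Those of Cfap36 and Dnah17 lie in coding sequence on the minus strand, at chr11:29144129-29144158 and chr11:117973901-117973928, with 4 and 3 listed 3′ ends. Those of Cfap298 (chr16:90931338-90931366) and Cfap69 (chr5:5644448-5644475) also lie in coding sequence on the minus strand, with 3 each. In Cfap36, Dnah17, Cfap298 and Cfap69 another 5′ end had as many. In Dnah14 (plus strand, chr1:183552891-183552919) and Cfap57 (minus strand, chr4:118292859-118292885) no 5′ end had more than 2, so that the sequences shown stand for several equal ones. The Cfap20 sequence (minus strand, chr8:97947625-97947654) had 5 and is also identical to an mRNA of another gene, as described with that gene.

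Sense sequences were found for 45 of the 46 members (97.8%), where 71.0% of all protein-coding genes had at least 1. The members are long, with a median merged exon length of 6388 bp against 3498 bp for all protein-coding genes, so that densities per kb of merged exon were used to set genes side by side. The median member had 2.66 sense sequences per kb, and the median protein-coding gene had 2.89. Of the members 22 lay above the protein-coding median. Only 8 members (17.4%) reached 10 per kb, against 30.0% of protein-coding genes. By median the members thus lay around the middle of the range, but few were dense: 3 were above the upper quartile of protein-coding genes, 12.8 per kb. No member could be below their lower quartile, which was 0. Pooled over all exons, the members had 3.81 per kb and all protein-coding genes 12.1 per kb. Over the longest coding transcript in place of merged exons, the medians were 3.36 per kb for the members and 3.49 for protein-coding genes.

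**Figure D1:**
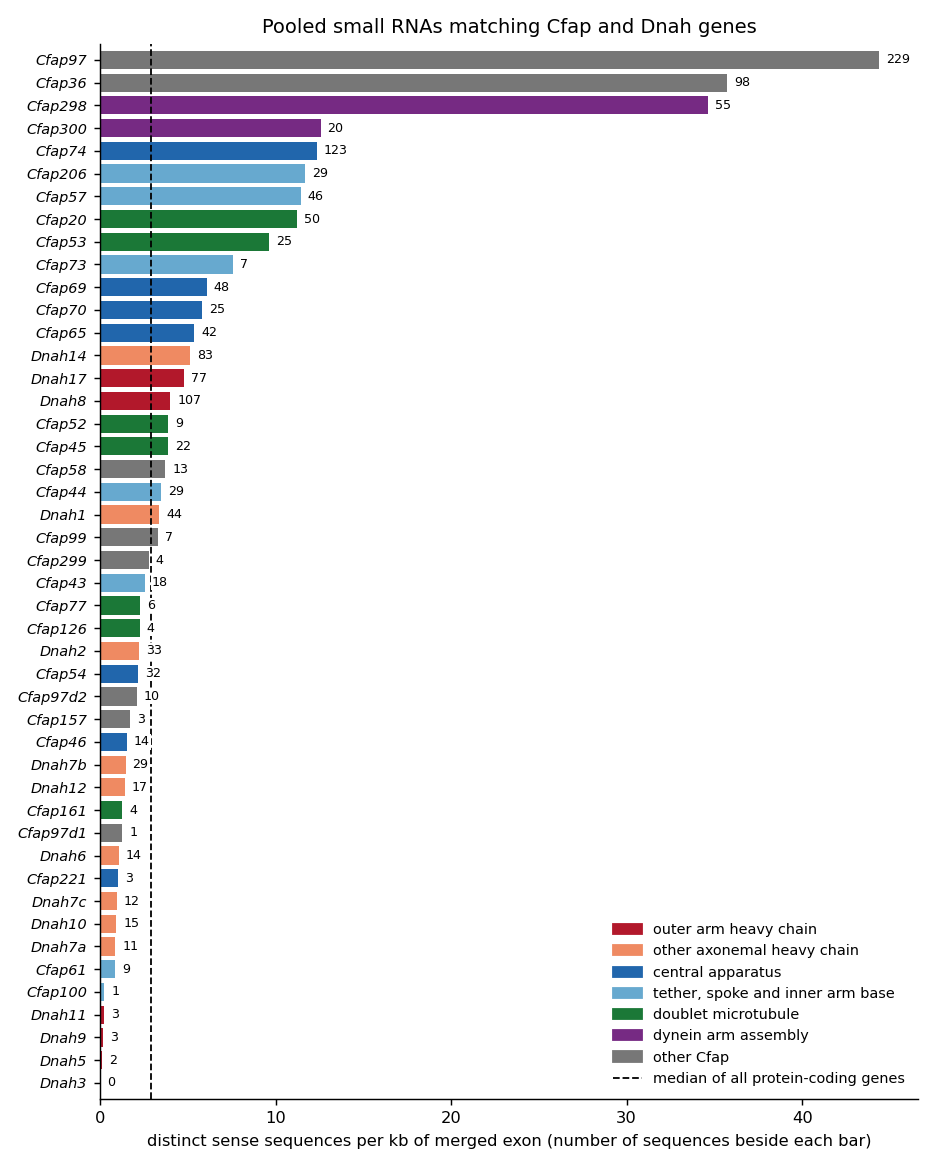
Bars give sense density, as sequences per kb of exon, for each of the 46 members, coloured by the role of the protein, with the number of sequences beside each bar, in the pooled list with no replicates. The dashed line is the median of all protein-coding genes, 2.89 per kb. Cfap97, Cfap36 and Cfap298 stand apart from the rest, and 18 of the 24 members below the line have fewer than 15 sequences.

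Cfap genes were denser than Dnah genes. The 31 Cfap genes had 986 sense sequences and a median of 3.71 per kb (range 0.243 to 44.4), and 18 of them lay above the protein-coding median. The 15 Dnah genes had 450 sequences and a median of 1.06 per kb (range 0 to 5.11), and 4 of them lay above it. The heavy chain genes hold 62.2% of the members' exon length and 31.3% of their sense sequences. The difference between the families was not tested, since the list gives a single pooled value per gene. A few genes carried much of the total: the 5 with most sequences (Cfap97, Cfap74, Dnah8, Cfap36 and Dnah14) held 44.6%, and 10 members had between 1 and 5 sequences.

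**Figure D2:**
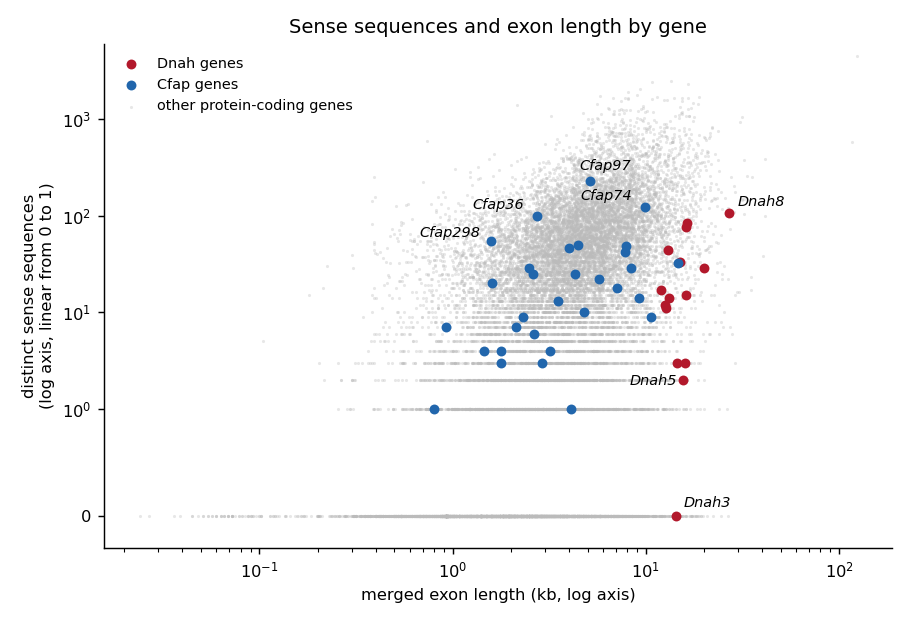
Each point is a gene, with its merged exon length on the horizontal axis and its number of distinct sense sequences on the vertical axis. The Dnah genes, with 12009 to 26820 bp of exon, lie between 0 (Dnah3) and 107 sequences (Dnah8), and Cfap97 has the most of all members, 229.

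The outer dynein arm of the sperm tail uses the heavy chains Dnah8 and Dnah17, while Dnah5, Dnah9 and Dnah11 serve the outer arms of airway and other motile cilia. Dnah8 had 107 sense sequences (3.99 per kb, chromosome 17 from 30772553 to 31012600) and Dnah17 had 77 (4.77 per kb, chromosome 11 from 117884409 to 117990454). Dnah5 had 2 (0.128 per kb), Dnah9 had 3 (0.188 per kb) and Dnah11 had 3 (0.207 per kb). Pooled over exons of like total length, the sperm pair had 4.28 per kb and the other 3 genes had 0.174 per kb. The lowest of the sperm pair thus lay above the highest of the other 3 genes.

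Among the remaining heavy chains, Dnah14, whose place in the axoneme is less well known, had 83 sequences (5.11 per kb), the highest density of all Dnah genes per kb of merged exon. Per kb of the longest coding transcript the order turned, with 6.17 for Dnah8 and 5.99 for Dnah14. Dnah1, an inner arm heavy chain needed to build the sperm tail, had 44 (3.37 per kb). Dnah2 and Dnah10, which form a double-headed inner arm, had 33 (2.20 per kb) and 15 (0.932 per kb). The inner arm genes Dnah12 and Dnah6 had 17 (1.42 per kb) and 14 (1.06 per kb). Dnah3, also an inner arm heavy chain, had 0 sense and 0 antisense sequences over 14305 bp of exon. A count of 0 allows up to 0.210 per kb, a limit that covers counting error only.

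Dnah7a, Dnah7b and Dnah7c are near-identical inner arm genes on chromosome 1, and their numbers are uncertain for that reason. They had 11, 29 and 12 sense sequences (0.862, 1.45 and 0.952 per kb). Of all 27-nt stretches of their longest coding transcripts, 60.8% of those of Dnah7a, 67.4% of those of Dnah7b and 67.4% of those of Dnah7c occur in another of the 3 genes. Yet 0 listed sequences matched more than 1 member. The listed sequences thus cover only the stretches that belong to a single copy. Over those stretches the densities were 2.30, 6.49 and 3.02 per kb, again highest in Dnah7b.

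Sequences were not spread evenly along the heavy chain transcripts, and the dense stretch differed from gene to gene. In Dnah17, 55 of 77 sequences started in the first of 3 equal parts of the 14973-nt transcript, and 21 (27.3%) started within nt 1854 to 2353. In Dnah1, 29 of 44 started in the first part and 17 within nt 56 to 555. Dnah2 showed the opposite, with 23 of 31 in the last part and 9 within nt 13171 to 13670. In Dnah7b 16 of 26 started between nt 11935 and the transcript's end at 12314. Of its sequences, 34.6% lay in the 3′ untranslated region, which makes up 0.869% of the transcripts matched. However, 67.4% of the 27-nt stretches of Dnah7b occur in another Dnah7 gene, and such stretches held no listed sequence. The spread of its sequences and the place of its own stretches thus cannot be told apart. Dnah8 and Dnah14 had smaller shares in their densest 500 nt, 14.6% and 13.4%. Dnah8 had 27, 41 and 35 sequences in the first, middle and last part, and Dnah14 had 18, 23 and 41. Of the Dnah8 sequences 13 are also antisense to the annotated gene AC165951.2, and of those of Dnah1 7 are also antisense to Gm35823. Covered bases made up 11.1% of the Dnah8 transcript, 10.5% of that of Dnah14 and 7.67% of that of Dnah17.

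**Figure D3:**
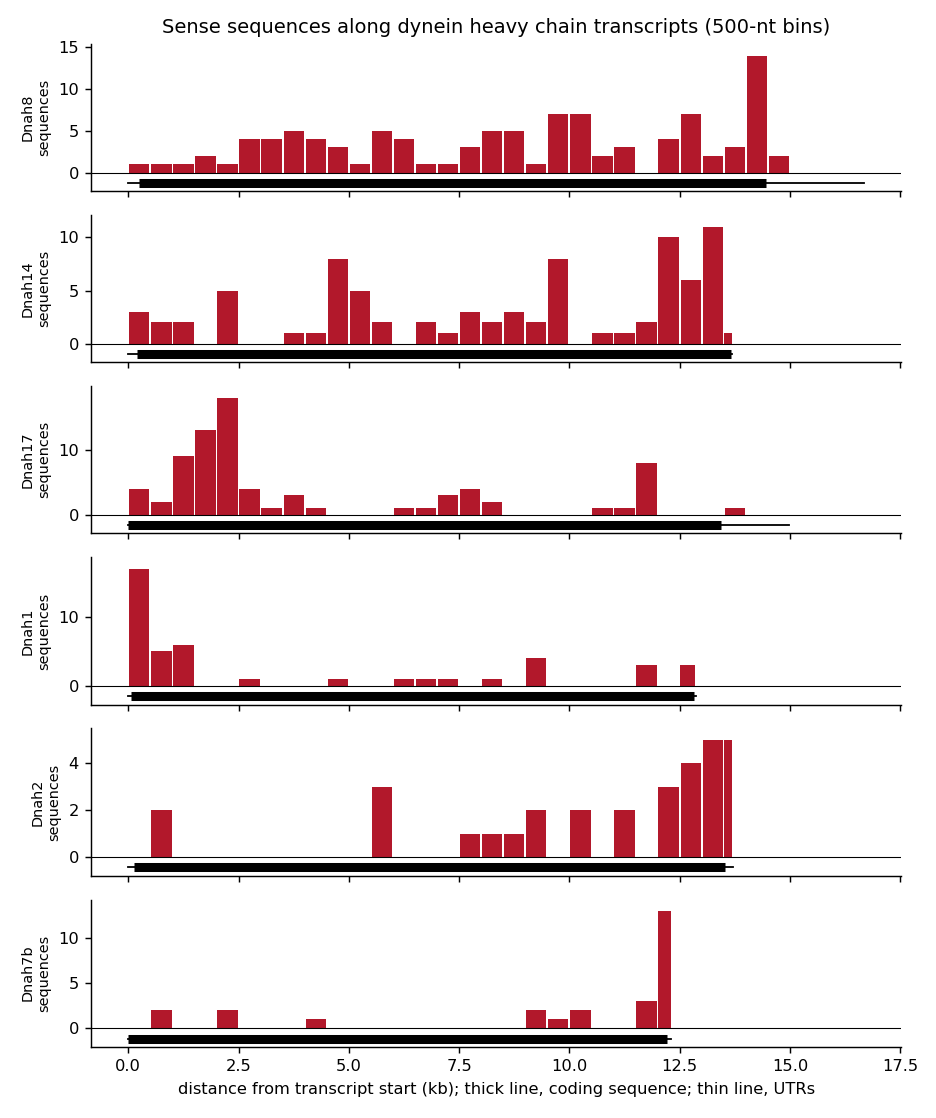
Distinct sense sequences by start position in 500-nt bins along the longest coding transcript of the 6 Dnah genes with most sense sequences, with the coding sequence as a thick line below each panel. Sequences of Dnah17 and Dnah1 gather toward the transcript start, those of Dnah2 and Dnah7b toward its end, and those of Dnah8 run along most of the coding sequence. In Dnah7b only stretches that occur in no other Dnah7 gene held listed sequences.

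Factors that assemble dynein arms had high densities among the Cfap genes. Cfap298 had 55 sense sequences (34.6 per kb, chromosome 16 from 90926252 to 90934964), all in coding sequence, and 40 of them (72.7%) started within nt 574 to 1073 of the transcript. Of these 55, 31 are also antisense to Gm49727, an annotated gene of the opposite strand. Cfap300 had 20 (12.6 per kb), and 19 of them started with U.

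Cfap97 had the most sense sequences of all members. Its product belongs to a family known from Drosophila, where the relative hemingway is needed for motile cilia and sperm tails. It had 229 sense sequences from 146 different 5′ ends (44.4 per kb, chromosome 8 from 47250204 to 47280920), a density above that of 94.5% of protein-coding genes and the highest of the members per kb of merged exon. Per kb of the longest coding transcript it had 49.1, below Cfap36 with 58.3. The 3′ untranslated region held 81.7% of them, where its length alone gives 57.7%, and 79 (34.8% of the 227 on the longest coding transcript) started within nt 3558 to 4057. Cfap36, which encodes a protein that binds the small GTPase Arl3, had 98 (35.7 per kb, chromosome 11 from 29121635 to 29147278). In contrast to Cfap97, 80.6% of them lay in coding sequence and 11.2% in the 3′ untranslated region. Both genes had 0 antisense sequences.

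Among genes of the central apparatus, Cfap74 had 123 sense sequences (12.4 per kb, chromosome 4 from 154783448 to 154840531), against 3 (1.03 per kb) for Cfap221, 14 (1.52 per kb) for Cfap46 and 32 (2.19 per kb) for Cfap54. In Chlamydomonas the counterparts of these 4 genes form a single projection of the central apparatus. Cfap69, needed for sperm tails in mice, had 48 (6.07 per kb), all in coding sequence although 22.8% of the length of the transcripts matched is 3′ untranslated. Per kb of the longest coding transcript, Cfap69 had 9.69 and Cfap74, with 53 of its sequences there, had 9.66. Cfap70 had 25 (5.83 per kb) and Cfap65 had 42 (5.37 per kb). The 7 genes of this group had a median of 5.37 per kb, and 4 of them lay above the protein-coding median.

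The 7 genes of tethers, spokes and the inner arm base had a median of 3.45 per kb. Cfap206, whose counterpart in Tetrahymena anchors a radial spoke, had 29 sequences (11.7 per kb), and Cfap57, linked to inner arms in Chlamydomonas, had 46 (11.4 per kb). Cfap73 and Cfap100, whose Chlamydomonas counterparts form a complex that regulates inner arms, had 7 (7.60 per kb) and 1 (0.243 per kb). The 7 sequences of Cfap73 all lay within chromosome 5 from 121079658 to 121079804. Cfap61, a protein at the radial spokes, had 9 (0.849 per kb). The 7 genes of doublet microtubules had a median of 3.85 per kb, with Cfap53 at 9.62 per kb (25 sequences) and Cfap161 at 1.25 per kb (4 sequences). Cfap97d1, a relative of Cfap97, had 1 (1.25 per kb). The 10 Cfap genes not named for their sense values had 4 to 29 sequences and 2.08 to 3.88 per kb.

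Cfap20, which encodes a protein at the inner junction of the doublets, had 50 sense sequences (11.2 per kb), but 20 of these are also identical to the mRNA of Stip1, a co-chaperone gene on another chromosome. All 20 are listed within a 33-nt stretch of chromosome 8, from 97947625 to 97947657, and match only transcripts of Cfap20 without a coding part. In the Stip1 transcripts all 20 of them cross an exon junction, and a position on the genome could then be listed for them only where the joined exons stand side by side. Their origin cannot be told apart from the sequence. Of the 20, 5 start with U, against 14 of the other 30, and without them Cfap20 had 6.74 per kb.

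Antisense sequences were few, 129 in 21 of the 46 members (45.7%), against 30.0% of all protein-coding genes with at least 1. These shares were not adjusted for exon length, of which the median was 6388 bp in the members and 3498 bp in all protein-coding genes. Dnah genes held 90 of the antisense sequences and Cfap genes 39. The members had 11.1 sense sequences for each antisense one, against 25.1 for all protein-coding genes. With sequences that match a single gene on the listed chromosome only, these ratios were 19.1 and 41.2. Of the 129, 57 are also sense sequences of another annotated gene. More antisense than sense sequences were found in 4 members (8.70%), Dnah11, Dnah10, Cfap157 and Cfap100, against 4.68% of protein-coding genes. The ratios and this count also depend on how sparse sense sequences are. Pooled over exons, the members had 3.81 sense sequences per kb and all protein-coding genes 12.1 per kb. Neither the ratios nor the count measure antisense sequences per kb, which were not compared.

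Most antisense sequences of some members lay in a single stretch. All 35 of Dnah11 lay on chromosome 12 from 119116472 to 119117071 and are sense sequences of Cdca7l, a gene of the opposite strand. All 10 of Dnah14 likewise are sense sequences of Lbr, from 183745535 to 183745896 on chromosome 1. Of the 12 of Dnah17, 4 are sense sequences of Pgs1, and 11 lay on chromosome 11 from 117883206 to 117884755. Cfap157, a gene needed in mouse sperm tails, had 9 antisense and 3 sense sequences.

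In Dnah10 and Dnah2, by contrast, 0 of the antisense sequences matched another annotated gene in the sense direction. The same held for the 7 of Dnah1, the 5 of Cfap100, the 5 of Cfap43 and those of some members with fewer. Dnah10 had 17, and 14 of them lay on chromosome 5 from 125298460 to 125301706; 13 of the 17 started with U. Dnah2 had 8, all of which started with U, while 1 of its sense sequences is also antisense to the annotated gene Dnah2os. Dnah1 had 7 antisense sequences, of which 6 started with U, and Cfap43 had 5, all of which did. Cfap100 had 5, of which 4 started with U, beside its single sense sequence. Over all 129 antisense sequences, 75.2% started with U (95% interval 66.8 to 82.4). Opposite-strand pairs whose 5′ ends overlap by 10 nt, the sign of slicing by paired Piwi proteins, numbered 0, and the other overlaps from 1 to 20 nt gave 10 pairs in all.

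The sense sequences of the members had a mean length of 26.9 ± 1.64 nt (SD, n = 1436), against 27.4 ± 1.60 nt for other protein-coding genes (SD, n = 1157894). In both sets 27 nt was the most frequent length, with 27.3% in the members and 25.8% in other genes. Sequences of 29 to 32 nt made up 15.4% in the members (95% interval 13.6 to 17.4) and 23.3% in other protein-coding genes, and those of 24 to 28 nt made up 81.9% and 75.9%. Mili-bound piRNAs are known for the shorter range. Per the labels, RNA of about 28 to 30 nt was cut from a gel for all 3 libraries, and the part of this step in the lengths was not tested. Longer sequences were more frequent in Cfap97, where 31.9% had 29 to 32 nt, than in Cfap74, where 4.88% did. Without Cfap97 the share in the members was 12.3%.

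A first base of U was found in 63.3% of the 1397 member sequences of 24 to 32 nt (95% interval 60.7 to 65.8), against 67.7% in other protein-coding genes. A first base of A was found in 21.2% (19.1 to 23.4), against 15.2%. C and G were first in 8.66% and 6.87% of member sequences. The share with A at position 10, which marks the partners of U-first piRNAs when both strands are sliced, was 33.6% (31.1 to 36.1) in the members and 32.1% in other genes. A at the neighbouring positions 9 and 11 made up 35.2% and 31.4% in the members, so that position 10 did not stand out. The U share was higher at 30 nt than at 24 nt, though not at every step between, with 37.3% at 24 nt, 65.0% at 26 nt, 60.5% at 27 nt and 74.2% at 30 nt in the members. In other genes these shares were 57.7%, 65.0%, 66.4% and 73.5%. The intervals treat sequences as independent, although many come from shared 5′ ends, so that real errors are larger.

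**Figure D4:**
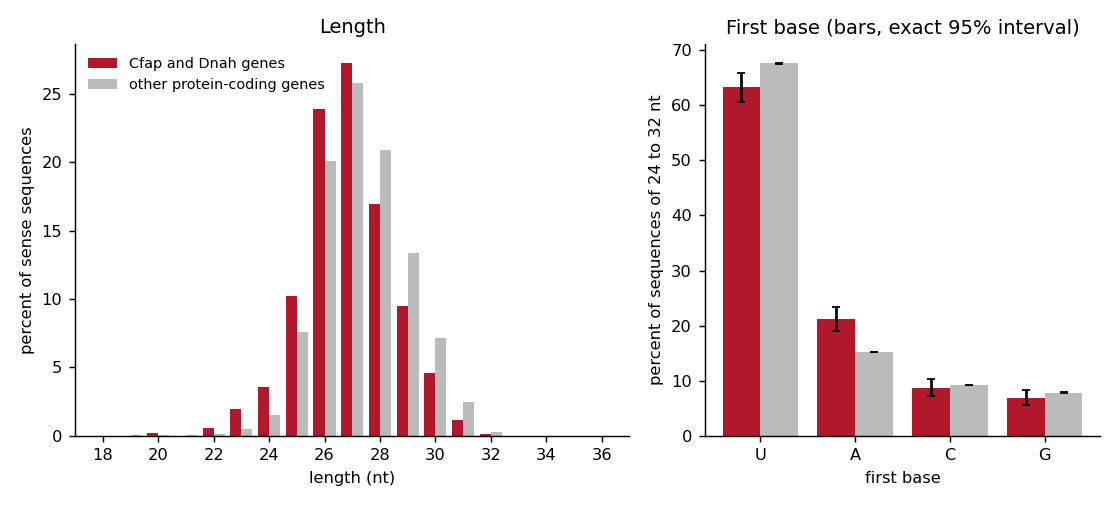
Bars give the percent of distinct sense sequences by length in nt (left) and by first base among 24 to 32 nt (right, with exact 95% intervals), for the members in red and other protein-coding genes in grey. Member sequences are shorter, with 15.4% at 29 to 32 nt against 23.3%, and start less often with U, 63.3% against 67.7%.

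Members differed among themselves in the first base. Of the 21 with at least 20 sequences of 24 to 32 nt, Cfap300 had the highest U share, with 19 of its 20 (95% interval in percent 75.1 to 99.9), followed by Dnah7b with 82.8% (64.2 to 94.2), Cfap69 with 77.1% (62.7 to 88.0) and Cfap97 with 75.3% (69.2 to 80.8). The lowest were Cfap206 with 32.1% (15.9 to 52.4) and Cfap20 with 39.6% (25.8 to 54.7). Without the 20 sequences identical to Stip1, Cfap20 had 46.7% (28.3 to 65.7). The interval of Cfap206 lay below those of the 4 highest, and that of Cfap20 without these sequences overlapped with those of Dnah7b and Cfap69. In 7 of the 21 the whole interval lay above 50%. Neighbours in this order overlapped in their intervals, as did the most abundant heavy chains, Dnah8 with 57.7%, Dnah17 with 60.0% and Dnah14 with 65.4%. Both families were close, with 61.8% in Dnah genes and 63.9% in Cfap genes.

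By midpoint, 73.7% of the sequences that matched a coding transcript lay in coding sequence, 24.3% (95% interval 22.1 to 26.7) in 3′ untranslated regions and 1.99% in 5′ untranslated regions. The same transcripts consist of 73.8%, 20.6% and 5.60% of these parts by length. In other protein-coding genes the 3′ untranslated share was 51.5% of sequences and 45.6% of length. The members' 3′ untranslated share rested on Cfap97, since without that gene it was 12.9%, against 13.2% of length. Without both Cfap97 and Cfap36 it was 13.1%, against 12.7% of length. In Dnah genes, whose transcripts are nearly all coding, 94.8% lay in coding sequence and 4.29% in 3′ untranslated regions. U was first in 74.5% (69.4 to 79.2) of member sequences in 3′ untranslated regions and in 58.5% (55.3 to 61.6) of those in coding sequence. Other genes had 75.3% and 59.4%, values that lie inside the members' intervals. Coding sequence held 73.7% of member sequences and 44.5% of those of other genes.

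Listed sequences in exons were set beside those in the rest of the members' ranges. In the 21 members with at least 20 sense sequences, exons had 6.54 sense sequences per kb. The remainder of the same ranges, 1761 kb of introns and gaps, had 293 other listed sequences on either strand, or 0.166 per kb. Of these, 10 matched exons of other genes. The 21 members were picked by their exon counts, so that their exon value is high by choice. Over all members the exon value was 3.81 per kb. Exon junctions were nearly absent from the list: 16 of 1436 sequences (1.11%) crossed a junction on every transcript matched, all by at most 3 nt on the shorter side. In the median Dnah gene 14.4% of all 27-nt stretches of the transcript cross a junction, and in the median Cfap gene 14.3%. Each listed interval has the length of its sequence, so that a small RNA joined across an intron could not be listed with its own position. Leaving out stretches that cross a junction, the median was 4.08 per kb in the members and 3.85 in protein-coding genes, which puts the members above and not below the protein-coding median.

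The 1436 sense sequences came from 1159 different 5′ ends. A 5′ end lying 1 nt after the 3′ end of another sequence of the same transcript, the head-to-tail order left when a precursor is cut into successive piRNAs, was found for 23 pairs. Distances of 2 to 20 nt gave 17.9 ± 3.95 pairs (SD over the 19 distances), with 25 at the highest. The base just after the 3′ end was U in 21.2% (95% interval 19.1 to 23.4), against 23.6% U over the transcripts. The pairs at 1 nt thus numbered more than the mean of the other distances, but lay within their range. The U share after the 3′ end was not above that of the transcripts.

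Other genes of the axoneme, taken from lists by role, varied by group. Intraflagellar transport carries building blocks along the tail. All 19 of its genes lay above the protein-coding median, with a median of 7.75 per kb, 39.5 for Ift74 and 27.9 for Ift43 at the top and 3.14 for Ift27 at the bottom. Of 11 genes for dynein assembly 10 lay above it, with a median of 9.11 per kb, Dnaaf2 at 57.2, Dnaaf1 at 36.2 and Pih1d3 at 2.76. These factors act in the cytoplasm, where dynein arms are assembled before transport. The 12 genes of outer arm docking and light or intermediate chains had a median of 5.98 per kb, Dnal1 at 50.6, Ccdc103 at 24.9 and Armc4 at 1.22. Among them, the intermediate chains Dnaic1 and Dnaic2 had 2.88 and 2.41 per kb. The 11 genes of the nexin-dynein regulatory complex and the ruler that sets its spacing had a median of 6.30 per kb, with Ccdc65 at 35.6, Iqcg at 13.9 and Fbxl13 at 0.368.

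Radial spoke genes were split between high and low values. The 11 genes had a median of 1.92 per kb and the widest range of these lists, 5 of them reached 10 per kb, and the extremes were Ropn1l at 96.1, Rsph1 at 46.6 and both Ropn1 and Rsph3b at 0. The 9 central pair genes, of which 0 reached 10 per kb, had a median of 1.22 per kb, 3 lay above the protein-coding median, and their highest values were 6.19 for Spef1 and 5.23 for Ak7, with Spag6 at 0.590. The 14 sperm tail accessory genes had a median of 8.04 per kb, with Odf1 at 35.3, Tekt1 at 15.4 and Odf3 at 0.484. The 9 genes for transcription factors and cofactors of ciliated and meiotic cells had a median of 5.34 per kb, with Rfx3 at 26.6, Mybl1 at 16.3 and Gmnc at 0.

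Cytoplasmic dyneins offer heavy chains of like size outside the axoneme. Dync1h1, the heavy chain of the general transport dynein, had 243 sense sequences (15.5 per kb), and Dync2h1, that of the intraflagellar motor, had 5.02 per kb. Dnah14, the densest axonemal heavy chain on this scale of merged exons, had 5.11 per kb. The 5 genes of cytoplasmic dynein 1 had a median of 15.5 per kb, with Dync1li1 at 50.9, Dync1li2 at 31.4 and Dync1i1 at 0.

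**Figure D5:**
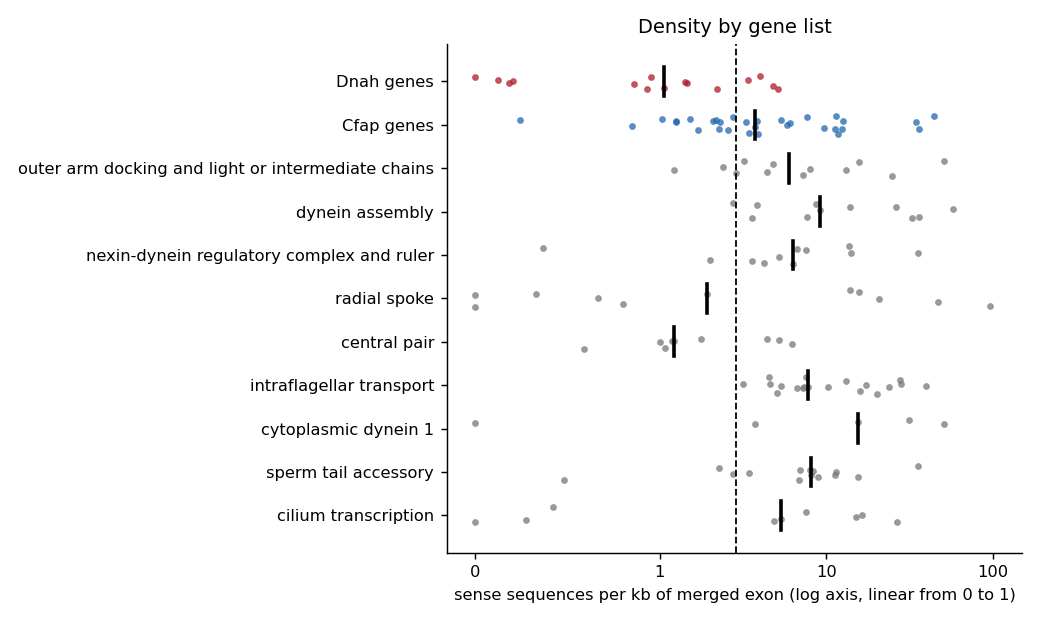
Density in sense sequences per kb of merged exon for each Dnah and Cfap gene and for each gene of the other axoneme and dynein lists, on a log axis that is linear from 0 to 1. Points are genes, thick bars are medians and the dashed line is the protein-coding median, 2.89 per kb. Dnah and central pair genes lie low, with medians of 1.06 and 1.22 per kb, and all intraflagellar transport genes lie right of the line.

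Markers of testis cell types were read from the same list, since small RNAs of members could come from several cell types. All 5 spermatocyte markers had sense sequences (12.9 to 165 per kb), as did all 5 spermatid markers (0.274 to 82.4 per kb). Of 6 Sertoli cell markers 3 had any, with a highest value of 2.99 per kb. Of 6 Leydig cell markers 4 had any, with a median of 0.374 per kb. The highest Leydig values were Star at 19.0 and Insl3 at 11.2 per kb, and Star also had 51 antisense sequences. Of all protein-coding genes 71.0% had at least 1 sense sequence. These values are small RNAs and not mRNA levels. The list gives no mRNA level for any member, and the part of transcript abundance in the densities was not tested.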

How the data were processed

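Small RNAs from 3 immunoprecipitates of mouse testis were described, 1 library per group. Libraries were made with an Illumina small RNA kit from gel-cut RNA of about 28 to 30 nt, per the labels' protocols. Per the file headers the positions refer to NCBI mouse build 37, which the submitters' processing notes call mm9. The authors deposited no counts but a list of 2219118 distinct sequences, each given once with a position and without read number, strand or library. Sequencing depth is therefore unknown, the aligner is not stated, and the comparisons planned between libraries were not computed.

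Each sequence was matched over its whole length and exactly, from a seed of 18 nt, to GENCODE vM21 transcripts (GRCm38) of the listed chromosome, on either strand, with Python 3.11.15 and numba 0.67.0. A match was found for 58.8% of sequences. A sequence that also matched the sense strand of a member was not counted as antisense. The search was tested on simulated data. Sequences were counted once each and divided by merged exon length, also where they matched another gene, which 9 members did. Base shares use 24 to 32 nt. Shares carry exact Clopper-Pearson 95% intervals (SciPy 1.17.1), and a count of 0 was given the limit of 3 counts; both cover counting error only. No test was run, because there are no replicates and no library labels. Coordinates are mm9 positions as listed, 1-based, and sequences were copied from the list.

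The members and gene lists were chosen with earlier results of these data known. Genes named are all Dnah genes, the 12 Cfap genes with most and the 5 with fewest sense sequences per kb, the 5 members with most antisense sequences, members sharing over 10% of sequences with another gene, and the 2 highest and 1 lowest of each list. Other genes named for their role or a single value were chosen after their values were seen. Alternatives tried were 5′ ends counted once, 24 to 28 nt only, sequences of a single gene only, matches on any chromosome or near the gene only, the top member left out, transcript length, and other assignments to untranslated regions.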

Additional observations from a re-analysis of the deposited data

Results flagged for a closer look

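Of the 1436 sense sequences of the members, 39 were shorter than 24 nt and outside the piRNA range used for base shares. They made up 2.72% of member sequences, against 0.774% in other protein-coding genes, came from 23 members, and 14 of them started with U. Another 62 sense sequences matched only annotated transcripts without a coding part, in 13 members, and entered no share of coding or untranslated regions. They include 21 of Cfap20 and all 10 of Cfap97d2. Both sets are signals outside the main measurements, and the libraries hold no control immunoprecipitate to set them against.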

How the results depend on the processing

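Of 57 alternative values, 48 stayed within the limits set for them (the exact 95% interval for shares, 1.5 times for counts and medians, 1 SD for lengths), and 9 moved beyond. The SD is over single sequences and is a wide limit for a mean. Matches on any chromosome or near the gene only changed no value, so that the count of 48 is a weak measure of stability. With each 5′ end counted once, U as first base fell to 58.0% and the 3′ untranslated share to 19.98%. With 24 to 28 nt only, the 3′ untranslated share was 21.3%. With sequences of a single gene only, 72 antisense sequences were left. Without Cfap97 the 3′ untranslated share was 12.9% and the share of 29 to 32 nt was 12.3%. On the longest coding transcript only, the 3′ untranslated share was 20.4%, against 21.04% of length. In the last 2 settings it thus lay below and not above its share of length. Chosen after seeing the data, the median without junction stretches was 4.08 per kb, above and not below the protein-coding median on that scale, 3.85, and the 3′ untranslated share without Cfap97 and Cfap36 was 13.1%. Beyond what each construction leaves out, the cause was not tested. No paired analysis was possible because each group has 1 library and the list names no library. Read numbers and depth are unknown, so that a gene with few listed sequences, such as Dnah5 with 2, may still hold many or few reads. Near-identical genes and exon junctions are under-represented in a list of single unspliced positions.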
